A study of Homo sapiens with 28 samples.

Results

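Regions of chromatin-associated RNA (caRNA) that were called as methylated in HepG2 cells and in neither of the leukaemia lines numbered 3969. They were taken from peaks of N6-methyladenosine (m6A), the methyl mark on adenosine inside RNA, mapped by methylated RNA immunoprecipitation sequencing (MeRIP-seq). Overlapping peaks of all 14 immunoprecipitated (IP) libraries were merged on each strand of chromosomes 1 to 22 and X, which gave 86263 merged regions. A region was kept when both HepG2 libraries had a peak in it and none of the 12 K562 and NB4 libraries did, and these are called HepG2-only regions here. They made up 4.60% of all merged regions and 20.8% of the 19059 regions found in both HepG2 libraries. The presence of peaks chose the regions, so their absence from K562 and NB4 is a description and carries no test.

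The study asked which chromatin proteins go with m6A on caRNA and followed the RNA-binding protein RBFOX2 in leukaemia cells. For HepG2, a hepatoma line that grows as an adherent epithelium, there were 2 IP libraries of WT cells. K562, from a chronic myelogenous leukaemia, gave 2 libraries each of WT, Control and RBFOX2 KD cells, and NB4, from an acute promyelocytic leukaemia, gave 3 each of Control and RBFOX2 KD cells. WT cells were unmodified, whereas Control cells carried a non-targeting short hairpin RNA and KD cells a hairpin against RBFOX2. In all groups the chromatin fraction was isolated and rRNA was depleted before the pulldown. The labels do not say whether the libraries of a group came from separate cultures, and each line stands for its tissue only as a single tumour.

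m6A is written into nascent RNA by a complex around METTL3 and METTL14, mostly at the motif DRACH, in which D is A, G or T, R is A or G and H is A, C or T. In mature mRNA the mark is known to gather in long internal exons and around the stop codon, and in chromatin-bound RNA it is also found in introns, promoter-associated RNA and transcripts outside genes. A MeRIP-seq peak needs both methylation and enough of the RNA. In these bulk libraries a region absent from a list can therefore mean less RNA or less methylation, and the lists do not tell these apart.

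The RNA at the summits of some named HepG2-only regions is shown first, because the presence of the motif is what the peak lists cannot show by themselves. Not all of them are strong, as DKK1 lay at percentiles 65.3 and 58.9 of the lists of HepG2 WT 1 and 2. Each run is read 5′ to 3′ on the strand of the peak from hg38 and is centred on the summit. Wherever a transcript has an untranslated region (UTR) in that window, a shorter run centred on a motif is given, which need not include the summit. Capitals mark GGACT, the core form written GGACU in RNA, where the window held it, and otherwise every DRACH. The first group holds coding exons with GGACT within 50 bases of the summit, in genes for 3 signalling factors, an adaptor, a centrosomal protein and a transcription factor.
GDF7, chr2:20671096-20671196, plus strand: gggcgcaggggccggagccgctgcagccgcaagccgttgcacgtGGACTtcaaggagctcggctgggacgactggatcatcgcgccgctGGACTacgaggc
ANKS4B, chr16:21250078-21250178, plus strand: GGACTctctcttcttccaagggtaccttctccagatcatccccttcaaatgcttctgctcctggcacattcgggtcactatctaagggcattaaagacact
TACC2, chr10:122086465-122086565, plus strand: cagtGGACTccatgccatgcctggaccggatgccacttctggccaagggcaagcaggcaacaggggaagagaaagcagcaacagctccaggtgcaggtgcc
BMP4, chr14:53950240-53950340, minus strand: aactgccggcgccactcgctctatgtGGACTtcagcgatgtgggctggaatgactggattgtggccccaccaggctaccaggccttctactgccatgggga
DKK1, chr10:52316664-52316764, plus strand: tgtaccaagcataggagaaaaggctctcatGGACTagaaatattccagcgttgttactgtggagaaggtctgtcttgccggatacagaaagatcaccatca
TBX3, chr12:114671921-114672021, minus strand: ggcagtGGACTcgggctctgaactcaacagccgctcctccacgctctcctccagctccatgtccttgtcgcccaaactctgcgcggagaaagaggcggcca
The second group holds regions with other DRACH forms in place of GGACT. ONECUT1, NR5A2, F5, KLB, MET and ARHGAP29 are coding exons, the PTPRN2 window lies in intron 1, and the FGA window is the strand opposite the last exon of fibrinogen alpha.
ONECUT1, chr15:52789569-52789669, minus strand: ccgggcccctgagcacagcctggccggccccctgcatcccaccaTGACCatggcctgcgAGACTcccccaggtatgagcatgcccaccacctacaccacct
NR5A2, chr1:200048333-200048433, plus strand: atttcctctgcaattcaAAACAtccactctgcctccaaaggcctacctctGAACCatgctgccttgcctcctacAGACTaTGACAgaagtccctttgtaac
F5, chr1:169541682-169541782, minus strand: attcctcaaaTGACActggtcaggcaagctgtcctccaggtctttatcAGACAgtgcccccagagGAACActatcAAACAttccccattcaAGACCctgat
KLB, chr4:39434494-39434594, plus strand: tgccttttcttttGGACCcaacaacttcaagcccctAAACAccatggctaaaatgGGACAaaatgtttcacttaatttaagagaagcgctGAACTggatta
MET, chr7:116699433-116699533, plus strand: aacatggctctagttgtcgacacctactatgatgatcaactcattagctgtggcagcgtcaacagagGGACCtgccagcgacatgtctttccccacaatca
ARHGAP29, chr1:94174344-94174444, minus strand: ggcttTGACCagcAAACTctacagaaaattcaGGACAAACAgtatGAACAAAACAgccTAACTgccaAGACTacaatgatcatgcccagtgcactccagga
PTPRN2, chr7:158524838-158524938, minus strand: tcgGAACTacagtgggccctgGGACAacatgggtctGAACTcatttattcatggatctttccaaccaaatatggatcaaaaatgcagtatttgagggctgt
FGA antisense, chr4:154586725-154586825, plus strand: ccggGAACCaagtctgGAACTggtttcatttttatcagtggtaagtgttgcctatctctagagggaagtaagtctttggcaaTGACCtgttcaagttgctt
The third group gives the GGACT of the summit window in transcript ends of hepatocyte genes, each cut to 29 bases. Other DRACH forms can lie nearer to the summit.
SOX13, chr1:204126218-204126246, plus strand: atgttggtacttGGACTtgttcgtgcccc
HP, chr16:72060845-72060873, plus strand: gacttccatccaGGACTgggttcagaaga
ABCC3, chr17:50691267-50691295, plus strand: tgtccgcagaatGGACTtgatagcaaaca
GDF7 held GGACT at 2 places in its window and ARHGAP29 held DRACH at 8, whereas the ONECUT1 window, one of the strongest regions, held DRACH at 2.

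HepG2 and the leukaemia lines differed as their labels say. Of 14 marker genes of hepatocyte-derived cells, 7 had a peak in HepG2 WT 1 and 11 in HepG2 WT 2, against 0 to 4 in each of the 12 other libraries. Of 14 marker genes of blood and leukaemia cells, 2 had a peak in each HepG2 library, against 12 or 13 in K562 and 10 or 11 in NB4. ALB (albumin) and AFP (alpha-fetoprotein), the defining secreted proteins of hepatocytes and hepatoma, had no peak in any of the 14 libraries. KRT8, a keratin of simple epithelia, had 0 and 1 peaks in HepG2 and 2 to 4 in the K562 libraries, against the direction of its marker role. The HepG2 lists were the shortest, with 22635 and 27358 peaks against 29511 to 44043, although the depth recovered from the peak statistics was the highest, at 29.2 and 32.9 M reads against 10.8 to 25.6 M. Enrichment was also lowest in HepG2, with a median fold of 3.84 and 4.03 against 5.08 to 8.01. Depth and enrichment therefore moved with the cell line, and their part in which regions were called was not tested. Without HepG2 WT 1 the rule kept 6575 regions and without HepG2 WT 2 it kept 4699, whereas leaving out any 1 of the other libraries gave 3983 to 4104.

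HepG2-only regions were weaker on average than the HepG2 regions that K562 or NB4 shared, yet the strongest stood near the top of both lists. The fold enrichment is the number of reads at the summit over the local background, and −log10 q states how far that excess lies from the background of its own library. The median fold of the HepG2-only regions was 3.64 in HepG2 WT 1 and 4.02 in HepG2 WT 2, with interquartile ranges of 2.87 to 4.63 and 3.16 to 5.31. The 15090 shared regions had medians of 4.15 and 4.76. The median −log10 q was 18.5 and 27.5 in the HepG2-only regions against 27.3 and 43.7 in the shared ones, and the median width was 346 bases against 697. A merged region widens with every library added, so widths of regions with 2 and with up to 14 libraries are not on an equal footing. Of the HepG2-only regions, 2977 had a −log10 q of at least 10 in both libraries, 692 a fold of at least 5 in both, and 173 lay above the 90th percentile of both lists. At the weak end, 1461 lay under the 25th percentile of at least 1 list.

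**Figure D1:**
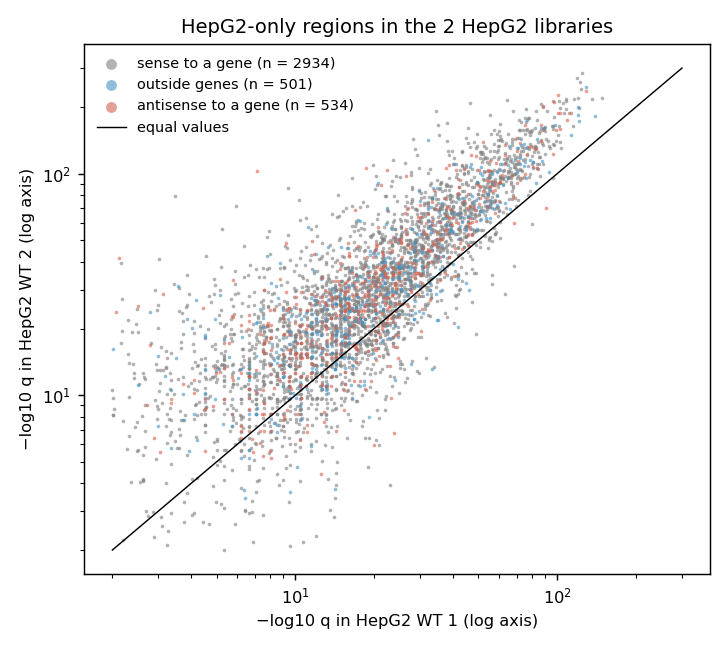
Each point is one of the 3969 HepG2-only regions, with its −log10 q in HepG2 WT 1 on the x axis and in HepG2 WT 2 on the y axis, both on log scales, coloured by orientation to the gene at its summit. Most points lie above the line of equal values, 3308 of them, and sense regions, antisense regions and regions outside genes overlap over the range.

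Across the 3969 regions the −log10 q values of the HepG2 libraries had a Spearman rho of 0.824 and the folds a rho of 0.793. The points share their local sequence and RNA level, so this describes how alike the pair of libraries was and nothing more. HepG2 WT 2 gave the higher −log10 q in 3308 regions (83.3%). The plot of both libraries shows that this held over most of the range.

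The rule ranks a region by the lower of its percentiles in the HepG2 lists. The highest was an intergenic region of 1518 bases at chr3:183910571-183912088, 7994 bases from ABCC5, with a −log10 q of 129 and 247 in HepG2 WT 1 and 2. The second lay antisense to the last exon of FGA, the alpha chain of fibrinogen, with 129 and 236 and a fold of 11.04 and 14.97. The third lay in the first exon of the long non-coding RNA ENSG00000285744, with 124 and 284. Then followed OXER1, a receptor for oxo-fatty acids, with 123 and 241, and ONECUT1, a transcription factor of the liver and pancreas, with 122 and 258. ARHGAP29, a GTPase-activating protein for RhoA, had 149 and 220 in its last exon. GDF7, a ligand of the bone morphogenetic protein family, had 120 and 220, and ANKS4B, a scaffold protein of the epithelial brush border, 119 and 270. TACC2, STARD13, EMILIN1 and HEG1 completed the first 12, with −log10 q from 108 to 136 in HepG2 WT 1 and from 213 to 218 in HepG2 WT 2. Of these 12, 6 had the summit in coding sequence of a canonical transcript, FGA among them on the opposite strand. All 12 lay above the 98th percentile of both lists.

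The threshold of the authors was a q of 0.01, so a −log10 q of 2. Just inside it were regions in H6PD (2.00 and 8.11), RNF213 (2.00 and 9.69), FZD5 (5.33 and 2.01) and SVIL (2.01 and 8.13), given for HepG2 WT 1 and 2. Just outside were 451 regions of both HepG2 libraries with a peak in exactly 1 of the other 12, whose median −log10 q in that library was 14.2. The weakest of them was an intergenic region of chromosome 6 with 3.98 and 9.69 in HepG2 and 2.09 in K562 WT 2. Another lay antisense to OGFR with 12.7 and 11.7 in HepG2 and 2.56 in K562 WT 1. K562 Control 2 alone accounted for 120 of the 451. A further 3044 regions were found in 1 HepG2 library and no other, 517 of them in HepG2 WT 1 and 2527 in HepG2 WT 2, with a median −log10 q of 13.3.

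The remaining HepG2 regions were mostly common to all lines. Of the 19059 regions, 11758 (61.7%) also had a peak in both K562 and NB4, 2282 (11.97%) in K562 alone and 1050 (5.51%) in NB4 alone. The HepG2-only regions usually stood well apart from the peaks of the leukaemia lines. The median distance to the nearest K562 or NB4 peak on the same strand was 49681 bases. It was under 500 bases for 277 regions (6.98%), between 500 and 2000 for 387 (9.75%) and at least 200000 for 931 (23.5%).

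Introns held the largest share of HepG2-only regions, a share above that of the shared HepG2 regions but below that of all merged regions. The best summit of a region was its summit with the highest −log10 q in any library. In shared regions it could therefore come from a K562 or NB4 list, so the places of shared and HepG2-only summits are not on an equal footing. Of the 3969, 1388 (35.0%, 95% Wilson interval 33.5 to 36.5) had the best summit in an intron, against 21.5% (20.9 to 22.2) of the shared regions. Exons held 898 (22.6%) against 28.6%, promoters 647 (16.3%) against 22.0%, and transcript ends 635 (16.0%) against 24.9%. Intergenic summits numbered 401 (10.1%) against 3.04%. Over all 86263 merged regions introns held 38.4% (38.1 to 38.7), exons 18.03%, promoters 18.9%, transcript ends 15.3% and intergenic places 9.45%. Beside that background the HepG2-only regions had fewer summits in introns and promoters and more in exons, while transcript ends and intergenic places differed by under 1 percentage point. A promoter here runs from 1000 bases upstream to 100 downstream of a transcript start, and of the 647 promoter regions 447 had a start on their own strand and 200 on the other strand alone. The 7696 regions found in all 14 libraries lay further along the same direction, with 12.3% in introns and 29.6% at transcript ends. A matching set for K562, the 12570 regions of both K562 WT libraries with no peak in HepG2 or NB4, had 39.8% in introns and 18.1% between genes. High shares in introns and between genes were therefore not particular to HepG2. In an alternative chosen after the data were seen, sense regions were cut to the highest-ranked 1 per gene. Antisense regions and regions outside genes were all kept, and 21.9% of the 2463 regions left lay in introns. The intervals cover counting error alone, and no test was made because presence in the lists chose the sets.

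**Figure D2:**
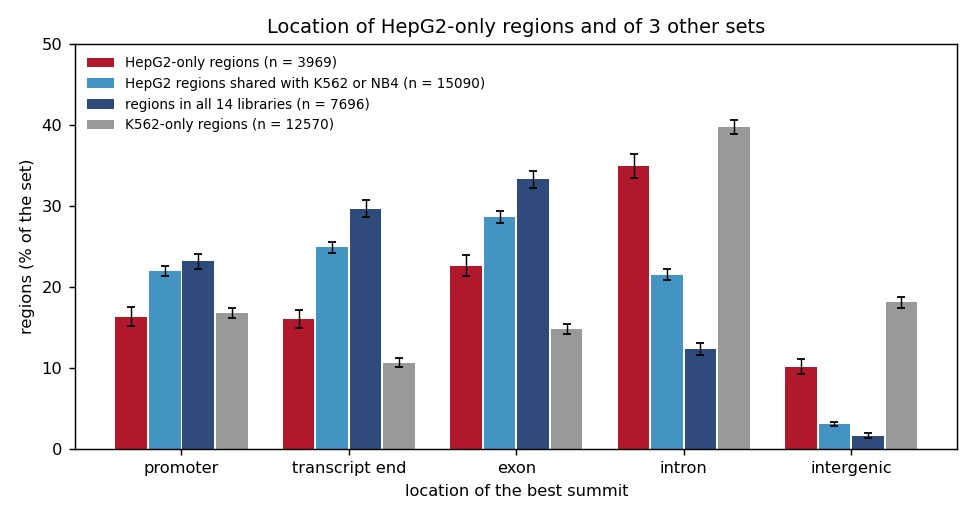
Bars give the share of regions (in %) by the location of the best summit for HepG2-only regions, HepG2 regions shared with K562 or NB4, regions in all 14 libraries and K562-only regions, with 95% Wilson intervals. HepG2-only regions had 35.0% in introns, between the 21.5% of the shared and the 39.8% of the K562-only regions.

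By gene, 2934 regions (73.9%) lay on the strand of the gene that held the summit, 534 (13.5%) on the opposite strand and 501 (12.6%) outside every gene. The shared regions had 89.2%, 6.32% and 4.51%, and all merged regions 78.4%, 10.1% and 11.5%. Long non-coding RNA genes held 640 of the sense regions, which was 16.1% of all HepG2-only regions against 9.18% of the shared ones and 12.2% of all merged regions. The K562-only regions had 23.6% in such genes, 12.7% antisense and 20.9% outside every gene. High shares in these classes were therefore not particular to HepG2. In 2264 regions sense to a protein-coding gene the canonical transcript gave an intron for 1072 (47.3%), coding sequence for 579 (25.6%), 3′ UTR for 354 (15.6%) and 5′ UTR for 70 (3.09%). All merged regions had 54.4% in such introns and 22.2% in coding sequence. Where the summit fell in coding sequence or 3′ UTR, 262 of 933 (28.1%, 25.3 to 31.1) lay within 200 bases of the stop codon, and the shared regions had 28.7% (27.6 to 29.7), so the intervals overlapped, and all merged regions had 24.3%. Of the 579 summits in coding sequence, 387 (66.8%, 62.9 to 70.6) lay in an exon of at least 400 bases, against 83.3% of shared regions, 90.6% of regions in all 14 libraries and 58.5% of all merged regions. The K562-only regions had 59.8%.

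GGACT was more frequent around the summits of the HepG2-only regions than in their flanks, but in a smaller share than in shared regions. In shared regions the window sat at the strongest summit of any list, which could be a K562 or NB4 summit. What part this had in the difference was not tested. The window from 75 bases before to 75 after the summit held GGACT in 847 regions (21.3%, 20.1 to 22.6). Windows placed 300 bases to either side held it in 12.5%, so the excess was 8.88 percentage points. In the shared regions the window held it in 26.6% (25.9 to 27.3) and the flanks in 12.1%, and in all merged regions the window held it in 23.3%. The K562-only regions held it in 25.8% (25.1 to 26.6) of windows and 11.2% of flanks, so their share was also above that of the HepG2-only regions. DRACH, of which GGACT is 1 form, occurred in 94.5% of the windows and 93.0% of the flanks, so at this window length it set summits and flanks little apart. AGATG, a further motif that the study examined, occurred in 21.6% of windows and 19.5% of flanks. TGCATG, the splicing motif of RBFOX2, occurred in 4.03% of windows and 3.94% of flanks. Motifs were searched on the strand of the peak alone. Among the HepG2-only regions GGACT was found at 24.4% (22.3 to 26.5) of the 1601 sense regions in genes with no K562 or NB4 peak and at 19.3% (17.3 to 21.5) of the 1333 in genes with one. Antisense regions held it in 17.2% (14.3 to 20.7).

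**Figure D3:**
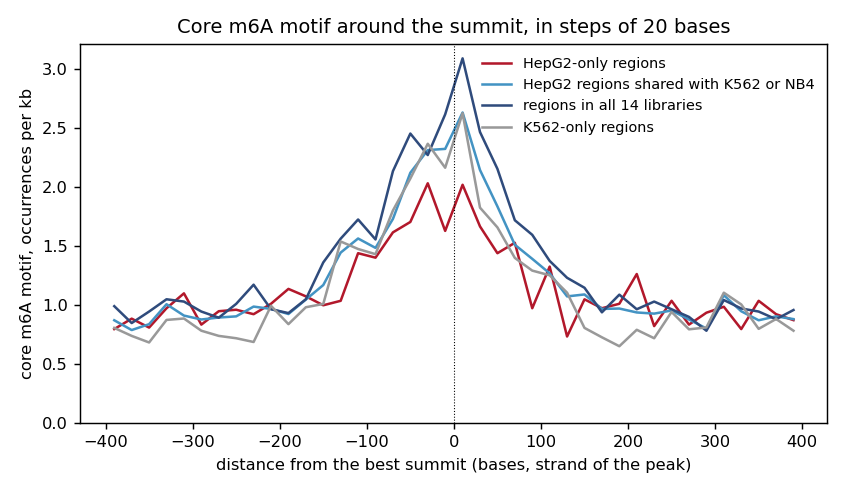
Lines give occurrences of the core motif GGACT per kb, in steps of 20 bases, against the distance from the best summit in bases on the strand of the peak for 4 sets of regions. The motif was densest within 40 bases of the summit in each set. HepG2-only regions reached 2.03 per kb in the step centred 30 bases before the summit and 2.02 in that centred 10 bases after it, with 1.63 between them, and regions of all 14 libraries reached 3.09 in the step centred 10 bases after it.

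In all, 1428 genes held at least 1 sense HepG2-only region. For 721 of them (50.5%, 47.9 to 53.1) no K562 or NB4 library had a peak anywhere in the gene on its strand, and these held 1601 of the regions. The rule already asked for no leukaemia peak at the region itself, which raises this share. The matching share over all genes with a HepG2 region is not given, so the 50.5% has no background. The other 707 genes were methylated in a leukaemia line as well but at other places, 317 of them in all 12 other libraries, and held 1333 regions. The genes were unevenly filled, with a single region in 878, 2 to 4 in 441 and at least 5 in 109, which held 31.6% of the sense regions. Regions in genes with no leukaemia peak had a median −log10 q of 21.4 and 33.6, against 15.5 and 22.3 in the other genes. Over all 15683 genes with a merged region, 9.11% had a HepG2-only region, and 17.9% of the HepG2 regions sense to a gene were HepG2-only. Only 7842 of these genes had a region of both HepG2 libraries and so could hold one. The gene lists that follow are read beside these shares, and they were drawn up with earlier results of these data known. Their counts of genes with no K562 or NB4 peak stand beside the 50.5% of all 1428 genes and share its limit.

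Transcription factors of hepatocytes were the list with the largest share of genes. Of 27 such genes with a merged region, 18 held HepG2-only regions, 48 of the list's 67 HepG2 regions, and 13 of the 18 had no K562 or NB4 peak. A region of both HepG2 libraries was present in 26 of the 27, a larger part than over all genes. HNF4A, the nuclear receptor at the head of the hepatocyte network, had 5 peaks in each HepG2 library and 1 in each K562 WT library, with 4 sense and 4 antisense HepG2-only regions. ONECUT1 had 2 and 3 peaks, GATA4 4 and 4, TBX3 4 and 4, and PROX1 3 and 3, all with none in the 12 other libraries. SOX13 had a −log10 q of 105 and 209 at its 3′ UTR, and NR5A2, a nuclear receptor of bile acid synthesis, 90.4 and 143 in exon 5 of 8. The bile acid receptor NR1H4 and the drug sensor NR1I2 each held 2 regions, and PPARGC1A, a coactivator of gluconeogenesis, held 4. FOXA2, in contrast, had 4 and 2 peaks in HepG2 but also up to 2 in K562, and kept 1 region.

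Secreted plasma proteins held 37 HepG2-only regions out of 44 HepG2 regions in 16 of 36 genes, and 14 of the 16 genes had no K562 or NB4 peak. The coagulation factor F10 had 8 and 9 peaks in HepG2 WT 1 and 2 and 7 HepG2-only regions, F5 6 and 8 peaks with 5 regions, and F7 3 and 4 peaks with 3 regions. AGT, the precursor of angiotensin, had 5 and 8 peaks with 5 regions. None of these 4 genes had a peak in K562 or NB4. HP, which encodes haptoglobin, had a single region with a −log10 q of 78.0 and 179 and a fold of 4.77 and 6.97. The strongest F7 region, in its last exon, had 77.2 and 179. TF, the iron carrier of plasma, had 59.3 and 128, and SERPINF2, the inhibitor of plasmin, 56.0 and 152. The apolipoprotein B gene APOB had 0 and 11 sense peaks in HepG2 WT 1 and 2 and so no sense HepG2-only region, and AMBP, APOA2, ORM1 and SERPINA1 likewise had a sense peak in HepG2 WT 2 alone. Sense peaks were missing from HepG2 WT 1 in these genes, so none of them held a sense HepG2-only region. On the opposite strand APOB held 8 HepG2-only regions, SERPINA1 2, and AMBP and APOA2 1 each.

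**Figure D4:**
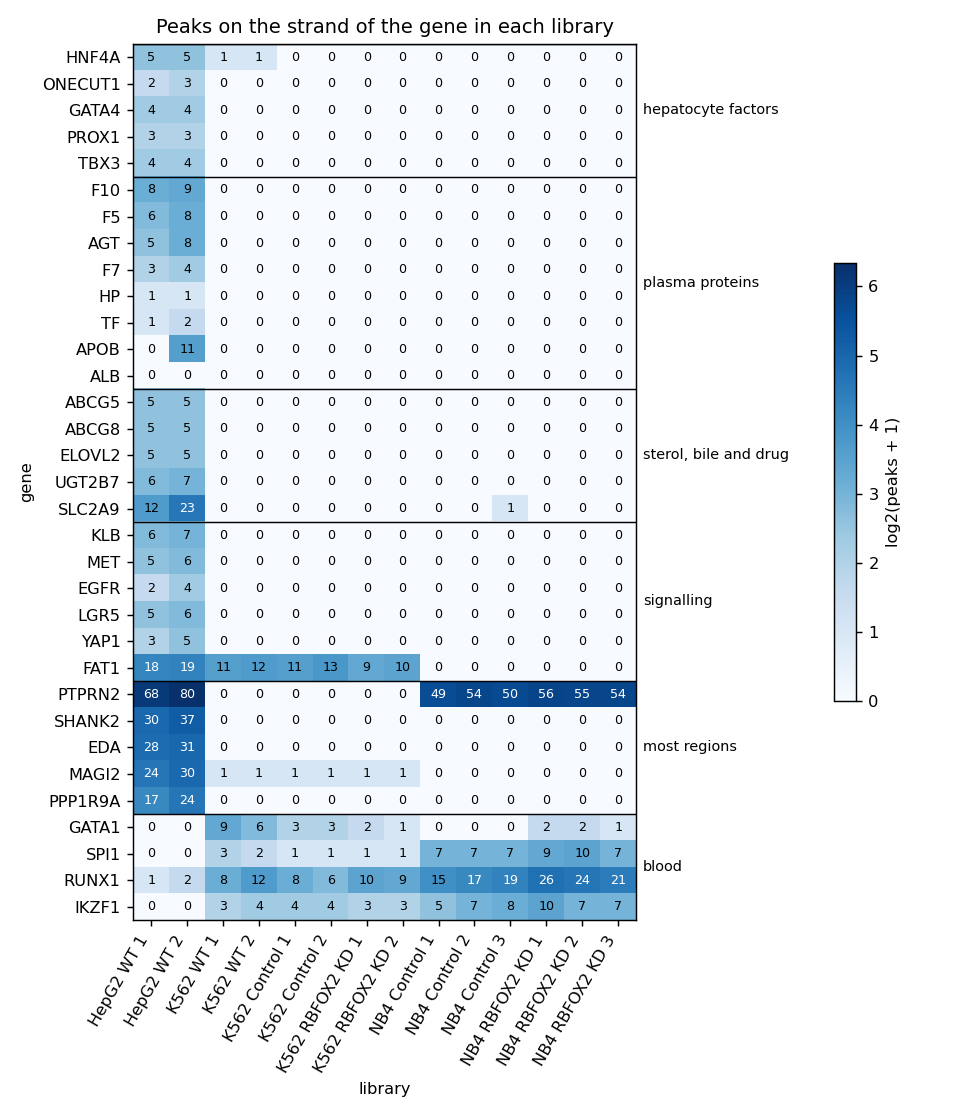
Each cell gives the number of peaks on the strand of a gene (rows, grouped by role) in one of 14 libraries (columns), shaded by log2(peaks + 1). ONECUT1, F10 and SHANK2 had peaks in both HepG2 libraries and none elsewhere, APOB in HepG2 WT 2 alone, ALB nowhere, and the blood genes at the foot mostly in K562 and NB4.

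Among genes of sterol and lipid metabolism, 7 of 45 with a merged region (15.6%) held HepG2-only regions, 21 of 55 HepG2 regions (38.2%). ABCG5 and ABCG8, neighbouring genes for the subunits of the transporter that exports plant sterols into bile, had 5 peaks in each HepG2 library and none elsewhere, with 5 and 4 HepG2-only regions. The strongest ABCG8 region had a −log10 q of 79.8 and 155 and a fold of 7.24 and 11.4. ELOVL2, an elongase of polyunsaturated fatty acids, had 5 peaks in each library and 5 regions.

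For bile acid, drug, urea cycle and amino acid metabolism, 13 of 30 genes held 46 of 55 HepG2 regions, and 10 of the 13 had no leukaemia peak. SLC2A9, a urate transporter, had 12 and 23 peaks in HepG2, 1 in NB4 Control 3, and 10 HepG2-only regions. UGT2B7, which adds glucuronic acid to drugs and steroids, had 6 and 7 peaks and 6 regions. AHR, the receptor for dioxins, had 11 and 10 peaks with 8 regions, and also 2 peaks in every NB4 library. SLC13A5, a citrate transporter, held 4 regions, and PCK1 and G6PC1 of gluconeogenesis 1 each.

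Epithelial genes held 15 of 34 HepG2 regions in 11 of 28 genes. SDC1, a heparan sulphate proteoglycan, had 5 and 5 peaks, 4 regions and a strongest −log10 q of 103 and 139. The tight junction genes OCLN and CLDN1 held 2 and 1 regions, and ESRP2, a splicing regulator of epithelia, held 1 with 53.8 and 102. Oncofetal and imprinted genes held 15 of 35 regions in 4 of 12 genes. GPC3, an oncofetal proteoglycan, had 6 and 7 peaks and 4 regions, PEG3 4 regions, and PEG10 1 with a −log10 q of 86.8 and 207. KCNQ1OT1, a long non-coding RNA of an imprinted domain, had peaks in all 14 libraries, from 6 to 21 each, and 6 of its 16 HepG2 regions were HepG2-only.

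Among growth factor receptors and their adaptors, 10 of 26 genes held 26 of 57 HepG2 regions. KLB, the co-receptor of endocrine fibroblast growth factors, had 6 and 7 peaks and 6 regions, with 85.3 and 120 in exon 2 of 5. MET, the receptor of hepatocyte growth factor, had 5 and 6 peaks and 5 regions, with 69.5 and 110 in exon 2 of 21. EPHA2, an ephrin receptor, held 6 regions, and EGFR held 2, the stronger in intron 1 with 93.3 and 133. In the Hippo pathway, which restrains the coactivators YAP1 and WWTR1, 10 of 25 genes held 23 of 60 HepG2 regions. YAP1 had 3 and 5 peaks and 2 regions, WWTR1 1 peak in each library and 1 region, and AMOTL2, a binding partner of YAP1, 3 peaks in each library and 3 regions. The atypical cadherin FAT4 had 4 peaks in each HepG2 library and none elsewhere, whereas FAT1 had 18 and 19 in HepG2, 9 to 13 in the K562 libraries and none in NB4, with 6 HepG2-only regions.

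Wnt pathway genes held 12 of 68 HepG2 regions (17.6%), close to the 17.9% over all genes. LGR5, the R-spondin receptor, had 5 and 6 peaks and 5 of these regions, SP5, a target of beta-catenin, held 2, and DKK1, a secreted inhibitor, held 1 with a −log10 q of 31.8 and 36.4. The TGF-beta and BMP list held 12 of 51 regions (23.5%) in 9 of 32 genes. The ligand BMP4 had 1 region with 69.7 and 71.8, and the target ID2 1 with 72.6 and 127. TGFB1, by contrast, was methylated in every library, with 6 and 5 peaks in HepG2 and 5 to 11 elsewhere, and 1 of its 4 HepG2 regions was HepG2-only. The list of blood and leukaemia genes held none, with 7 HepG2 regions in 6 of 36 genes, all shared.

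The genes with most HepG2-only regions held them mainly in introns. PTPRN2, a phosphatase-like protein of secretory granules, held 59, SHANK2, a scaffold of synapses, 27, EDA, the ligand ectodysplasin, 26, MAGI2, a scaffold of cell junctions, 21, and PPP1R9A, a neuronal actin-binding protein, 17. Of these, 59, 22, 25, 20 and 13 lay in introns. The non-coding genes ENSG00000225689 and ENSG00000289349 held 19 each and ENSG00000258526 held 14. In the order named, the coding genes span 1049, 785, 423, 1437 and 389 kb and the non-coding genes 1299, 240 and 958 kb. The counts are not scaled to length. SHANK2 had 30 and 37 peaks in HepG2, EDA 28 and 31, and PPP1R9A 17 and 24, with none in the 12 other libraries. MAGI2 had 24 and 30 peaks and 1 in each K562 library. Within a gene the strength varied widely, from a −log10 q of 4.65 to 96.5 in HepG2 WT 1 over the SHANK2 regions and from 2.44 to 42.1 over those of EDA.

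PTPRN2 was methylated in HepG2 and NB4 at different parts of the gene. It had 68 and 80 peaks in HepG2 WT 1 and 2, 49 to 56 in each NB4 library and none in K562. Of its 137 merged regions, 59 were HepG2-only, 5 were shared by both HepG2 libraries and NB4, and 55 had no HepG2 peak. All 59 lay in introns of the transcript set, from 29.4 to 841 kb downstream of the annotated start, with a median of 509 kb. In the last 20% of this gene of 1049 kb lay 4 of 68 and 3 of 80 HepG2 peaks, against 49 of 49 to 53 of 56 NB4 peaks in each library. The plot of summits along the gene shows the NB4 peaks gathered there. These positions were looked at after the counts were known.

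**Figure D5:**
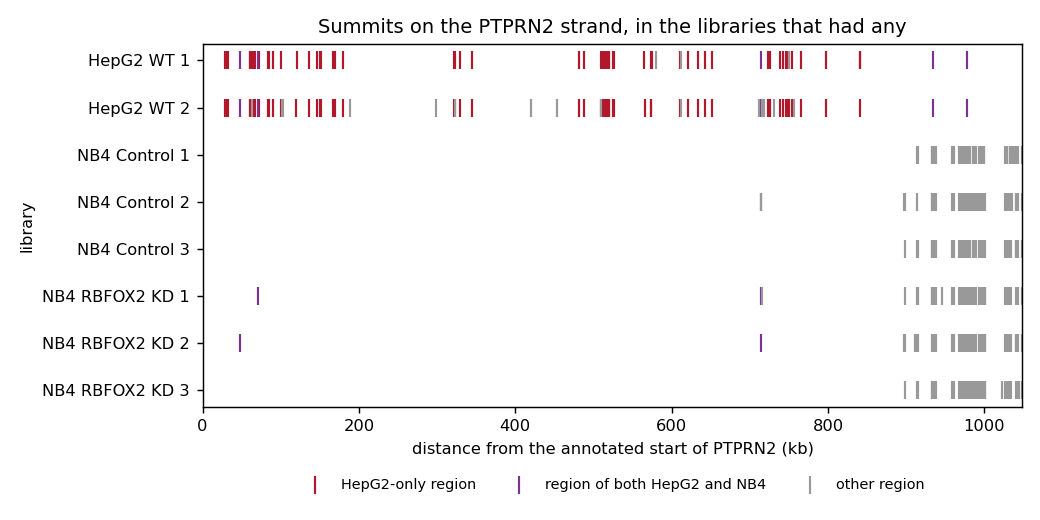
Each tick is a peak summit on the strand of PTPRN2, placed by its distance from the annotated start of the gene in kb, in the 8 libraries that had any. Red marks HepG2-only regions, purple regions of both HepG2 libraries and NB4, and grey all other regions of any library. HepG2-only regions ran from 29.4 to 841 kb, whereas the peaks in the NB4 rows gathered in the last 20% of the gene.

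MTAP, a gene of methionine salvage next in rank and named after its values were seen, had 16 and 15 peaks in HepG2, 13 HepG2-only regions and none in the other libraries. In a window that reached 500000 bases to either side of it on both strands, HepG2 had 26 and 25 peaks, NB4 4 to 8 and the K562 libraries 0 or 1.

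Of the 534 antisense regions, 198 (37.1%) overlapped a HepG2 peak on the strand of the gene itself, and the shared antisense regions did so in 37.9%. Only 5.08% of the sense regions overlapped a HepG2 peak on the opposite strand. In 169 of the 534 (31.6%) a K562 or NB4 peak on the strand of the gene overlapped the region. Of the 2934 sense regions, 71 were overlapped by a K562 or NB4 peak on the other strand. SPTBN1, a spectrin, held the most antisense regions, 11. It had 16 and 19 antisense peaks in HepG2, against 3 and 2 in the K562 WT libraries and none in the remaining 10. On its own strand it had 0 and 3 peaks in HepG2 and 7 to 15 in each other library. APOB held 8 antisense regions, with 9 and 12 antisense peaks in HepG2 and none elsewhere. SERPINA12, the secreted serpin vaspin, held 5 antisense regions and had no sense peak in any library. Whether strand assignment differed between libraries at such places was not tested.

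Some HepG2-only regions lay in sequence that the genome repeats. The 31 bases centred on the summit occurred at more than 1 place of hg38 in 639 regions (16.1%, 14.99 to 17.3), against 14.3% (13.8 to 14.9) of the shared, 27.9% (27.1 to 28.7) of the K562-only and 19.03% (18.8 to 19.3) of all merged regions. Introns held 351 of the 639 and intergenic places 147, which was 25.3% and 36.7% of the regions in those classes, against 6.12% in exons. At 100 or more places the share was 4.21%, against 5.95% of all merged regions. The 31 bases at the strongest regions of ELOVL2 and KCNQ1OT1 occurred at 6031 and 4474 places, and the ROR1 region lay in a window of 94.7% A and G. The run of the last is given to show such sequence, with capitals as above.
ROR1, chr1:63898527-63898627, plus strand: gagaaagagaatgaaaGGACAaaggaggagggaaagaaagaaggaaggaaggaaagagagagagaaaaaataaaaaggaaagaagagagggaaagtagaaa
Only the 31 bases were looked up, and whether whole reads from such places map to 1 copy was not tested. The gene named for these 3 regions is therefore not certain. The 31 bases at the named HP, OCLN and ID2 regions each occurred at 2 places, so the same limit holds for those genes.

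Across chromosomes the share of HepG2 regions that were HepG2-only ran from 9.95% (8.32 to 11.9) on chromosome 19 to 31.1% (27.8 to 34.7) on chromosome 4. The strands were evenly used, with 1993 regions on the plus and 1976 on the minus strand.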

How the data were processed

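MeRIP-seq of caRNA gave 14 IP and 14 input libraries. The input libraries have no table here and were not analysed. Per the study's methods and the submitters' processing notes, the authors trimmed reads with Trimmomatic 0.39, aligned them to hg38 with HISAT2 2.1.0 and GENCODE release 29, split them by strand with SAMtools 1.9 and called peaks in each library with MACS2 (extension 150 bases, up to 5 duplicates kept, q below 0.01), without pooling replicates. Whether the input served as control is not stated. The deposited lists give each peak's score, its fold enrichment (a ratio at the summit), its −log10 p-value and its −log10 q-value. No unit is normalized for comparison between libraries, so fold, depth and −log10 q values given for other lines describe those lists and carry no test.

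Lists were merged, annotated with GENCODE release 44 and searched for motifs in Python 3.11.15 (numpy 2.4.6, scipy 1.17.1, pysam 0.24.0), which were tested on simulated data. A summit was given to a gene on its own strand first. Location was the first that applied of promoter, transcript end (100 bases upstream to 1000 downstream), exon, intron and intergenic. Depth was recovered from fold and p-value, and pileups came out whole (within 0.05) in 100% of summits in 11 libraries but in about 10% in both HepG2 libraries and NB4 Control 3, whose depth is less certain. The members and gene lists were chosen with earlier results of these data known. Named regions are the 12 highest by rank, the 3 highest per location, up to 5 genes per list, the 8 genes with most regions and the marker genes, of which those with results are described, and some named items are not reported here. No replicate test was possible, because presence in the lists chose the regions, and intervals are 95% Wilson intervals for counting error only.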

Additional observations from a re-analysis of the deposited data

How the results depend on the processing

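Each of 6 results was recomputed with 1 library left out, with stricter or equal lists, at lower depth and with other overlap rules. Leaving out 1 library gave 3983 to 6575 regions, 20.9 to 25.8% of the HepG2 regions, 16.2 to 17.5% at promoters, 34.3 to 36.2% in introns, 18.5 to 21.4% of windows with GGACT and 36.8 to 50.3% of genes with no other peak, and the 6575 regions and the 36.8% came without HepG2 WT 1. With lists of equal size the HepG2-only regions were 26.4% of HepG2 regions, promoters 17.7%, introns 31.8% and genes with no other peak 36.8%. With HepG2 scaled to the lowest depth they were 19.04%, introns 33.5% and such genes 55.2%. Asking for no K562 or NB4 peak within 500 bases gave 19.4% and 55.7%, for none on either strand 19.5% with introns at 36.6%, and an overlap of at least 50% gave 19.8%. Starts on the strand of the peak alone put 11.3% at promoters, and a window of 50 bases to either side of the summit held GGACT in 15.6%. Protein-coding genes alone gave 47.0% of genes with no other peak, and peaks on either strand of the gene 42.2%. After the data were seen, leaving out antisense regions gave 19.5% with promoters at 15.1%. Keeping 1 sense region per gene, with all antisense regions and those outside genes, gave 19.2% at promoters and 21.9% in introns. The cause of these shifts was not tested beyond what each alternative changes by its construction. No paired analysis was possible because no result comes from a test, and the replicate numbers only name libraries.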
